A study of Homo sapiens with 3 samples.

Results

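Broad stretches of vitamin D receptor (VDR) signal just downstream of 5 transcription start sites, those of OTX1, IRS2, SKI, ADRBK1 and CIRBP, were examined in THP-1, a cell line from a human monocytic leukaemia that serves as a model of monocytes. Every peak that touched a window of 20 kb to each side of one of these start sites was taken, from the list of unstimulated cells and from the list of cells treated with 10 nM calcitriol for 40 min. The windows held 64 peaks of the 2989 in both lists, 39 of 1169 unstimulated and 25 of 1820 calcitriol peaks. The 5 genes were chosen by the peak positions themselves, because wide strings of peaks lay next to their start sites. Peak counts and extents there are therefore a description and carry no test. Start sites were given to the nearest kb on hg19, so distances from them are uncertain by up to 500 bp.

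Chromatin immunoprecipitation followed by sequencing (ChIP-seq) was done with an antibody against VDR or with non-specific IgG. Both VDR groups were THP-1 cells kept overnight in phenol red-free medium with charcoal-stripped serum, which lowers the supply of steroid hormones, and they differed in the ligand. Each VDR library pooled 5 immunoprecipitations, 1 library per condition, so no variation between cultures can be estimated and no p-value is given. The IgG sample was not analysed here, and the lists hold positions only, so the depth and the height of each peak are unknown.

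VDR is a nuclear receptor that is switched on by calcitriol, the active hormone form of vitamin D. It pairs with a retinoid X receptor on DNA, typically at a direct repeat of a hexamer with 3 bases between the copies. The 5 genes do not form a pathway. OTX1 is a homeobox transcription factor known from brain and sense organ development. SKI is a co-repressor that restrains SMAD proteins in transforming growth factor beta signalling. IRS2 is an adaptor that carries signals from the insulin and insulin-like growth factor receptors. ADRBK1, now named GRK2, is a kinase that phosphorylates activated G protein-coupled receptors such as the beta-adrenergic receptors. CIRBP is an RNA-binding protein induced by mild cold and other stress.

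The promoter sequences next to the domains were read from the RefSeq promoter table of GRCh38.p14, in which 4 of the 5 genes matched. The peaks are on hg19 and were not placed on these sequences, and the start of a table entry need not be the start at the centre of the hg19 window. The 250 bases before each start are shown 5′ to 3′ to let the promoters be compared by their composition. Capitals mark the hexamer GGGCGG (or CCGCCC on the other strand), to which Sp1-type factors bind, and the VDR-type hexamers (AGGTCA or GGTTCA or GGGTCA) on either strand.

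OTX1, chr2:63050580-63050829, plus strand: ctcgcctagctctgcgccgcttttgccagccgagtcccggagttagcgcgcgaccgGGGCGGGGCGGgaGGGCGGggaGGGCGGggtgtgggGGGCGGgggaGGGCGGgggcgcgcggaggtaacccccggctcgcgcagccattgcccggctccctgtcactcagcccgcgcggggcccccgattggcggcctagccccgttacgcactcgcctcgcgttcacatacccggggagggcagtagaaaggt

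IRS2, chr13:109786584-109786833, minus strand: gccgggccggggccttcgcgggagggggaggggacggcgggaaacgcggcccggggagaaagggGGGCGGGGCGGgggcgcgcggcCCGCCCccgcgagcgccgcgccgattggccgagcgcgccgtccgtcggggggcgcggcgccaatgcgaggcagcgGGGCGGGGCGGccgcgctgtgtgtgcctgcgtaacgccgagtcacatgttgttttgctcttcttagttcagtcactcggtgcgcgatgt

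ADRBK1 (GRK2), chr11:67266223-67266472, plus strand: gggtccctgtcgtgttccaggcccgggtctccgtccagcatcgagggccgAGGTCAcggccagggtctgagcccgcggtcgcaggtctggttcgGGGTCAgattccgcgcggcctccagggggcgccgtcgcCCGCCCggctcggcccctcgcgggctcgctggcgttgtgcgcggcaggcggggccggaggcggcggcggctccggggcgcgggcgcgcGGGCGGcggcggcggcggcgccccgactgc

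CIRBP, chr19:1269082-1269331, plus strand: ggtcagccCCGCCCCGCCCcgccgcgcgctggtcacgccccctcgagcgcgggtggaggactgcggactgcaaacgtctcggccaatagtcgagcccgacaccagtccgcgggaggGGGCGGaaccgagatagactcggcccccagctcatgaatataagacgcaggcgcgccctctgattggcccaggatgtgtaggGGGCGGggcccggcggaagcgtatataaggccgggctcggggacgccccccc

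All 4 promoters were rich in CpG, the dinucleotide that is dense in CpG islands. Over the full 300 bases of each table entry, which add 50 bases after the start, OTX1 held 34 CpG, CIRBP 37, IRS2 50 and ADRBK1 53. The median of all 35116 promoters in the table was 14 CpG (quartiles 4 and 28), so each of the 4 lay above the upper quartile. The ratio of observed to expected CpG was 0.94 for OTX1, 1.00 for CIRBP, 1.06 for ADRBK1 and 1.21 for IRS2, against a median of 0.579 over all promoters. A ratio at least as high was found in 14.8%, 8.54%, 4.58% and 0.498% of all promoters, respectively. Their GC content ran from 69.7% in OTX1 to 82.3% in ADRBK1, and the median of all promoters was 58.7%.

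Matches to GGGCGG on either strand, overlapping ones counted, numbered 6 in OTX1, 5 in IRS2, 4 in CIRBP and 2 in ADRBK1. At least 1 such match was present in 45.0% of all promoters and at least 5 in 5.14%. The letters CCAAT, on either strand, occurred 2 times each in OTX1, IRS2 and CIRBP, a count reached by 10.8% of all promoters, and ADRBK1 had none. No TATAAA was found on either strand in the 4 windows, and 11.5% of all promoters held it. Only this exact spelling was searched, so other forms of the TATA box were not counted. The printed CIRBP bases hold the similar letters TATATAAG near the start. Of the 3 VDR-type hexamers searched, ADRBK1 alone held a match, once to AGGTCA and once to GGGTCA. These lay 200 and 156 bases before the start. At least 1 of the 3 was present in 31.7% of all promoters. The similar hexamer AGTTCA was not searched, and the printed IRS2 bases hold it. A direct repeat of the 3 searched hexamers with 3 bases between was found in none of the 4 and in 17 of the 35116 promoters (0.0484%). These matches describe the letters of the windows and do not show that a factor binds there.

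In all 5 windows the peaks nearest to the start site formed a broad domain on its downstream side. How much of each gene the domain spanned was not determined, since no hg19 gene annotation was used. A string is taken here as a run of 2 or more peaks of a list with exactly 10 bp between neighbours, and extent is its end minus its start. In unstimulated cells each of the 5 domains was a string, of 4 to 6 peaks and 5.26 to 6.26 kb. After calcitriol the site nearest to the start ran over 2.79 to 7.48 kb. It was longer than before at OTX1 and IRS2, and shorter at SKI, ADRBK1 and CIRBP. The far ends of the unstimulated domains lay 5.99 to 7.01 kb downstream of the start, a narrower range than the 3.65 to 8.13 kb of the calcitriol list.

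**Figure D1:**
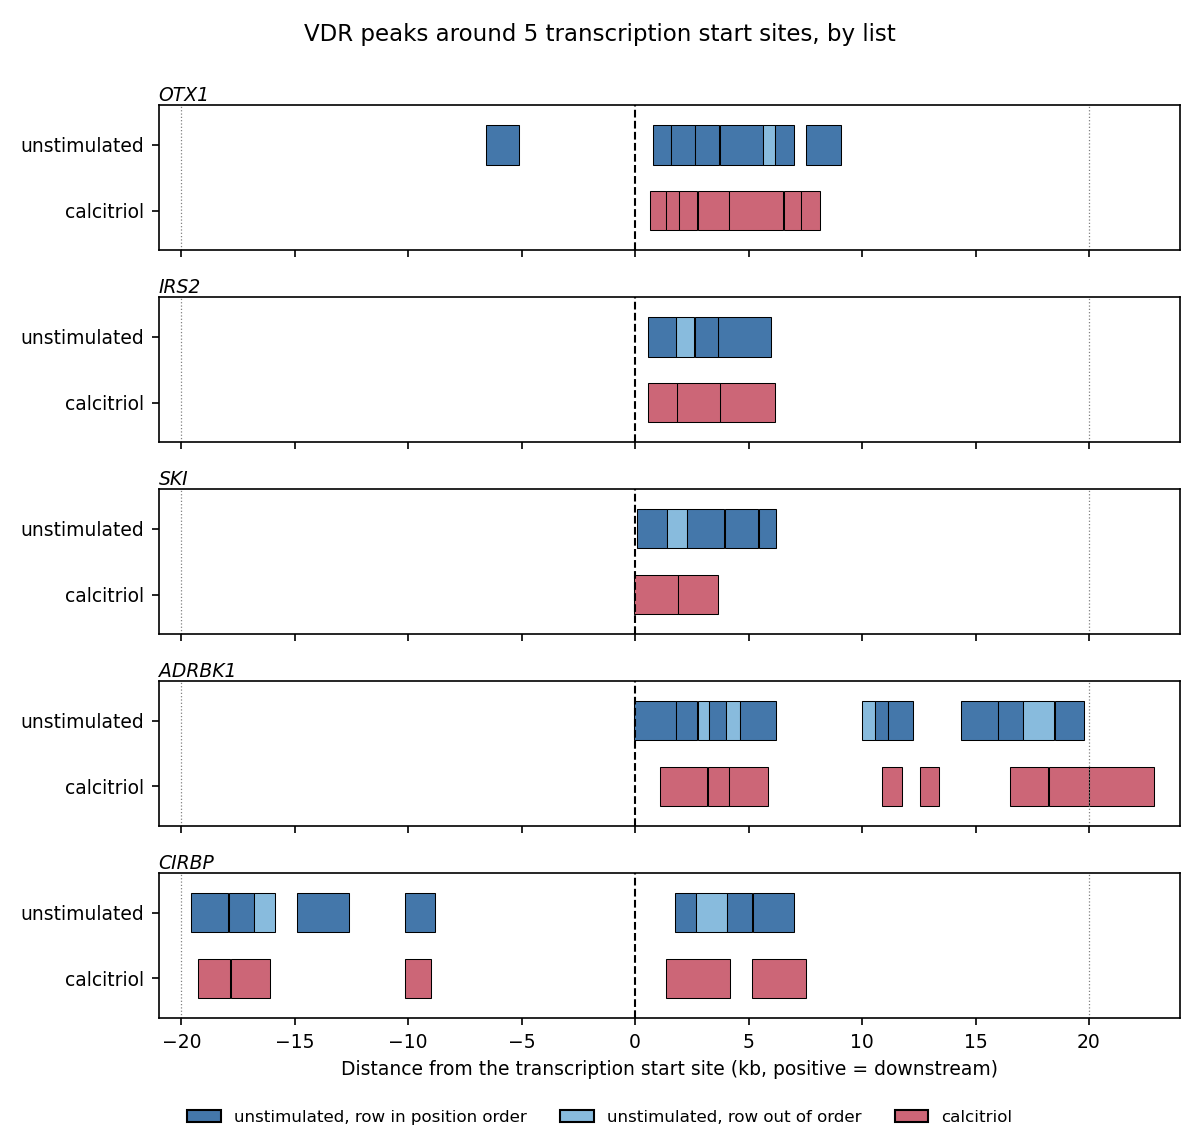
Positions of the VDR peaks in the 5 windows, by distance in kb from the transcription start site (dashed line) with downstream to the right, in the unstimulated (upper) and calcitriol (lower) list. Boxes that touch are peaks 10 bp apart (31 bp between the last pair of unstimulated boxes at ADRBK1), light blue boxes are peaks in out-of-order rows of the unstimulated list, and dotted lines mark 20 kb to each side. In every window a broad domain begins near the start site and runs downstream.

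The genes of the transcription factor and the co-repressor come first. At OTX1 (chromosome 2) the unstimulated string ran from 63278801 to 63285001, with 6 peaks of 520 to 1910 bp and an extent of 6200 bp. The calcitriol string ran from 63278651 to 63286131, with 7 peaks of 580 to 2400 bp and an extent of 7480 bp. It thus contained the whole unstimulated string, began 150 bp nearer to the start site and ended 1130 bp farther from it. In unstimulated cells another peak of 1520 bp followed after a gap of 550 bp (63285551 to 63287071), and the calcitriol string overlapped its nearer end. With neighbours up to 1000 bp apart joined, the unstimulated domain extended over 8270 bp and was then the longer. An upstream peak of unstimulated cells (63271421 to 63272890), at -6.58 to -5.11 kb from the start, had no counterpart after calcitriol.

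At SKI (chromosome 1) the near edges of both domains lay at the start site within its rounding. The unstimulated string ran from 2160091 to 2166220, with 5 peaks of 779 to 1650 bp and an extent of 6129 bp. The calcitriol string ran from 2159961 to 2163651, with 2 peaks of 1940 and 1740 bp and an extent of 3690 bp. The near edges differed by 130 bp and the far edges by 2569 bp, so the domains differed mostly on the downstream side. The 2 unstimulated peaks farthest downstream (2163941 to 2165431 and 2165441 to 2166220) shared no base with the calcitriol list. No other peak of either list lay in the SKI window.

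Of the signalling genes, IRS2 (chromosome 13) had the most alike domains in both lists. IRS2 is transcribed from the minus strand, and its coding sequence lies almost wholly in its first exon, so downstream means lower positions here. The unstimulated string ran from 110433011 to 110438431, with 4 peaks of 790 to 2340 bp and an extent of 5420 bp. The calcitriol string ran from 110432831 to 110438451, with 3 peaks of 1300 to 2430 bp and an extent of 5620 bp. The edges next to the start site differed by 20 bp and the far edges by 180 bp, and the calcitriol string contained the whole unstimulated string. These strings were the only peaks of either list in the IRS2 window, and they began 0.57 and 0.55 kb downstream of the start.

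ADRBK1 (chromosome 11) held the most peaks of the 5 windows, 13 in unstimulated and 8 in calcitriol-treated cells. The unstimulated domain at the start site ran from 67033931 to 67040191, with 6 peaks of 510 to 1880 bp and an extent of 6260 bp. The calcitriol domain ran from 67035111 to 67039861, with 3 peaks of 930 to 2070 bp and an extent of 4750 bp, and lay wholly within the unstimulated one. Its near edge stood 1.11 kb downstream of the start, and that of the unstimulated domain lay at the start within its rounding. ADRBK1 was thus the locus with the largest shift of the near edge, 1180 bp against 20 to 380 bp at the other 4.

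Farther downstream in the ADRBK1 window both lists held more peaks. The unstimulated list had a string of 3 peaks from 67044001 to 67046241 (2240 bp), where the calcitriol list had a peak of 880 bp (67044891 to 67045771). A calcitriol peak at 67046551 to 67047371 (820 bp) was the only one of the 25 that shared no base with the unstimulated list. The last string was longer after calcitriol. There a calcitriol string of 3 peaks ran from 67050521 to 67056851 (6330 bp) and an unstimulated string of 3 peaks from 67048341 to 67052470 (4129 bp), followed after 31 bp by a peak of 1280 bp. In the RefSeq gene order KDM2A precedes GRK2 and ANKRD13D follows it, and where the last string lies relative to ANKRD13D was not determined, since that annotation is of another build.

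At CIRBP (chromosome 19) the unstimulated list had an unbroken string and the calcitriol list did not. The unstimulated string ran from 1270751 to 1276011, with 4 peaks of 930 to 1830 bp and an extent of 5260 bp. The calcitriol list had a peak of 2790 bp (1270371 to 1273161) and another of 2400 bp (1274131 to 1276531), 970 bp apart. Joining neighbours up to 1000 bp apart gave the calcitriol domain an extent of 6160 bp, longer than the unstimulated one, so the shorter site after calcitriol at CIRBP rests on that gap. This domain began farther from the start than the others, 1.75 kb downstream in unstimulated and 1.37 kb in calcitriol-treated cells.

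The CIRBP window also held peaks upstream of the start. An unstimulated string of 3 peaks (1249411 to 1253141, 3730 bp) faced a calcitriol string of 2 peaks (1249751 to 1252911, 3160 bp). Both lists had a peak nearer to the start (1258861 to 1260201 unstimulated, 1258871 to 1260021 calcitriol), at -10.1 to -8.80 kb in the unstimulated list, and their upstream edges were 10 bp apart. An unstimulated peak of 2289 bp (1254111 to 1256400) had no calcitriol counterpart. In the RefSeq gene order MIDN is the protein-coding gene before CIRBP and FAM174C the one after it, and these upstream peaks were not assigned to a gene.

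At the outer limits of the windows, the calcitriol peak at ADRBK1 from 67053991 to 67056851 crossed the edge, and the next unstimulated peak there lay 1.25 kb outside. The lowest CIRBP peaks began 0.411 kb (unstimulated) and 0.751 kb (calcitriol) inside the edge. The nearest other peak outside a window lay 4.77 kb below the ADRBK1 window, in the calcitriol list.

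The lists differed in how much of the windows they covered. Peaks covered 47.0 kb of the 5 windows in unstimulated cells and 36.1 kb after calcitriol, a ratio of 0.768. Only lengths inside the windows were counted. Windows of 10 kb to each side gave 33.3 and 27.6 kb, and windows of 50 kb gave 51.5 and 43.5 kb. Over the whole lists the calcitriol peaks covered 1.66 times the length of the unstimulated ones. By window, unstimulated and calcitriol peaks covered 13.8 and 9.89 kb at ADRBK1, 12.6 and 9.49 kb at CIRBP, 9.14 and 7.42 kb at OTX1, 6.09 and 3.68 kb at SKI, and 5.39 and 5.60 kb at IRS2. The calcitriol list thus covered less in 4 windows and slightly more in the IRS2 window. At ADRBK1 the difference depends on the window edge. The calcitriol peak of 2860 bp that crossed it began 19.991 kb downstream of the start, so almost all of that peak was left out.

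**Figure D2:**
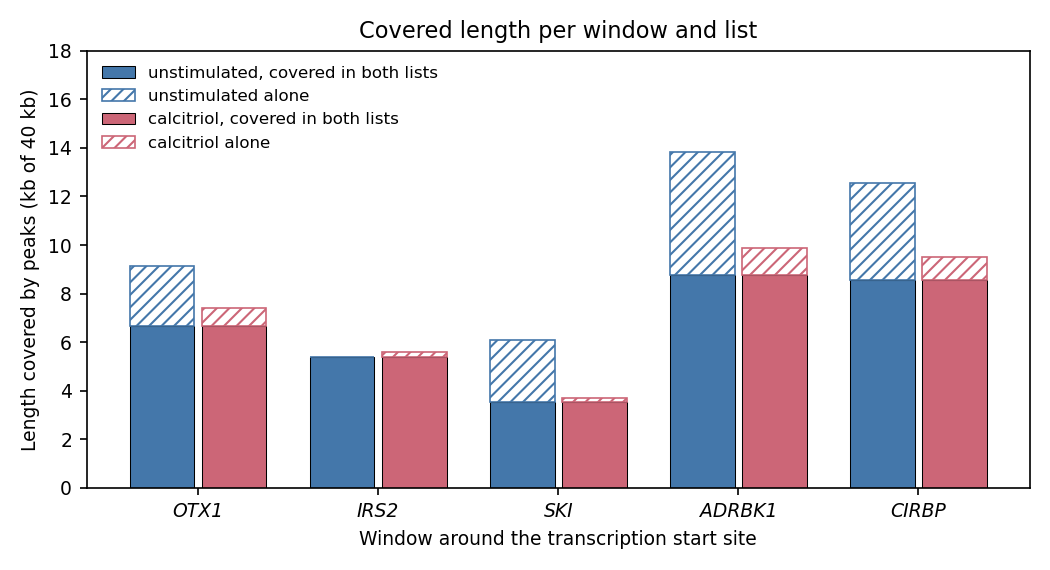
Length in kb covered by peaks in each window of 40 kb, for the unstimulated (blue) and calcitriol (red) list, with the part covered in both lists filled and the part covered in that list alone hatched on top. The hatched part of the unstimulated bar is the larger at ADRBK1, CIRBP, SKI and OTX1, and nearly absent at IRS2 (20 bp).

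Most of what the calcitriol list covered in these windows was covered before ligand too. The length in common over the whole lists was not determined, so the shares of length below describe the windows only. The lists had 32.9 kb in common, which was 91.1% of the calcitriol and 69.9% of the unstimulated length, while 14.1 kb were covered in unstimulated cells alone and 3.20 kb after calcitriol alone. The common part of the calcitriol length was 88.6% at ADRBK1, 90.0% at OTX1 and CIRBP, and 95.9% at IRS2 and SKI. The common part of the unstimulated length varied more, from 58.0% at SKI over 63.4% at ADRBK1, 67.9% at CIRBP and 73.1% at OTX1 to 99.6% at IRS2.

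Counted by peaks, 24 of the 25 calcitriol peaks (96.0%, exact Clopper-Pearson 95% interval 79.6 to 99.9%) had at least 1 bp in common with an unstimulated peak, where 39.4% of the whole calcitriol list did. Of the 39 unstimulated peaks, 33 (84.6%, interval 69.5 to 94.1%) had at least 1 bp in common with the calcitriol list, against 62.6% of the whole list. The 6 without a counterpart were 2 at SKI, 2 at ADRBK1, and 1 each at OTX1 and CIRBP. The intervals cover counting error only. Neighbouring peaks of a string are not independent, and the windows were picked for their peaks in these lists, so nothing is read from these shares beyond the count. With a reciprocal overlap of at least 50% required, 19 of the 39 unstimulated (48.7%) and 20 of the 25 calcitriol peaks (80.0%) counted as shared.

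Strings held most of the peaks in the windows. In unstimulated cells 34 of the 39 peaks (87.2%) belonged to 8 strings, and after calcitriol 20 of the 25 (80.0%) belonged to 6 strings. Over the whole lists 27.5% of unstimulated and 20.7% of calcitriol peaks were in strings, and having strings is what the windows were chosen for. The unstimulated list contained 127 strings in all with a median extent of 2640 bp, and only 13 of them had 4 or more peaks. The 5 domains were 5 of these 13. Of the 11 such strings in the calcitriol list, 1 lay in the windows, that of OTX1.

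With strings joined, the unstimulated list had 975 sites and the calcitriol list 1600. By extent the unstimulated domains ranked 4 (ADRBK1), 5 (OTX1), 6 (SKI), 10 (IRS2) and 13 (CIRBP), within the longest 1.33% of sites as deposited. In the calcitriol list the sites nearest to the same starts ranked 5 (OTX1), 12 (IRS2), 22 (ADRBK1), 49 (SKI) and 110 (CIRBP). As deposited, SKI, ADRBK1 and CIRBP thus ranked lower in the calcitriol list than in the unstimulated one. This order rests on out-of-order rows of the unstimulated list, described at the end. Without these rows the unstimulated sites nearest to the starts ranked 7 (OTX1), 51 (ADRBK1), 560 (SKI), 607 (IRS2) and 776 (CIRBP). By these sites the 3 genes then ranked higher in the calcitriol list. At SKI, IRS2 and CIRBP the site nearest to the start was then a short piece (1320, 1240 and 930 bp). Longer sites of 3939, 3370 and 2960 bp were left farther downstream in the same domains, and their ranks were not determined. With neighbours up to 1000 bp apart joined, CIRBP ranked 26 before and 15 after calcitriol. By the site nearest to the start, OTX1 alone stayed near the front of both lists without out-of-order rows. The second long ADRBK1 string, at the far end of the window, ranked 8 after calcitriol and 27 before.

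**Figure D3:**
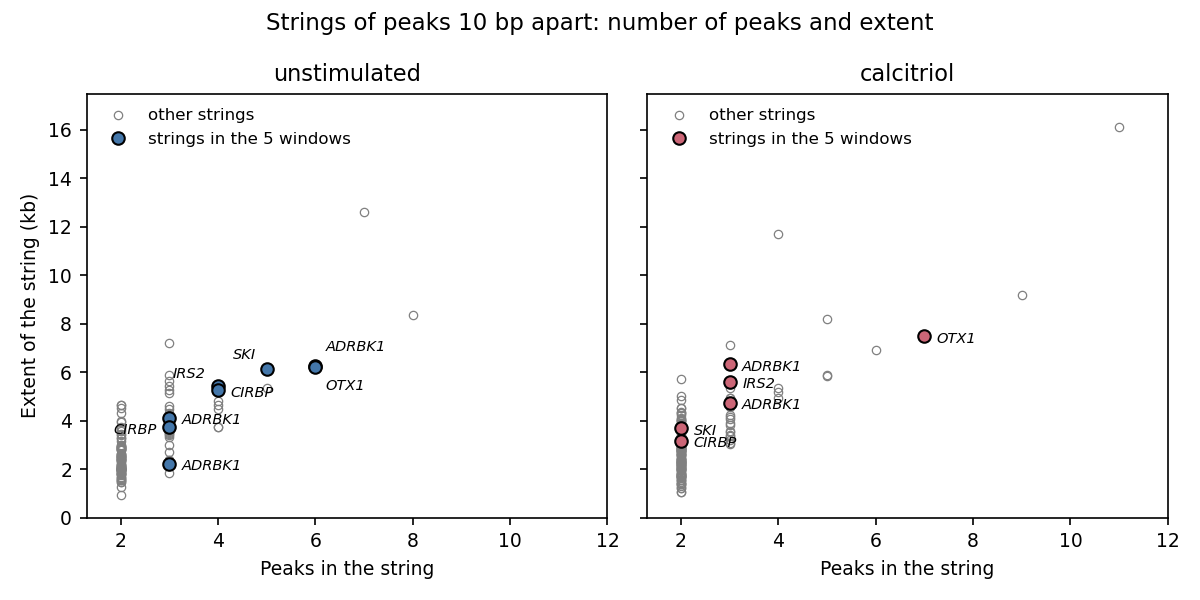
Extent in kb against the number of peaks for every string of peaks 10 bp apart, in the unstimulated (left, 127 strings) and calcitriol (right, 157 strings) list. Filled points are strings in the 5 windows, named by their gene, and open points are all others. In the unstimulated list all 5 start-site domains have 4 to 6 peaks, and in the calcitriol list OTX1 alone has more than 3.

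Of the 8 unstimulated strings in the windows, 5 were longer than the longest calcitriol site they overlapped and 3 were shorter. In the whole unstimulated list the overlapping calcitriol site was the shorter one for 41.7% of strings (53 of 127), the longer one for 53, and absent for 21. Of the 6 calcitriol strings in the windows, 3 were longer than the longest unstimulated site they overlapped and 3 were shorter. In the whole calcitriol list the overlapping unstimulated site was shorter for 54.8% (86 of 157), longer for 25 and absent for 46. With this few strings in the windows no difference from the whole lists is claimed.

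Within a domain the borders between peaks did not coincide in the 2 lists. The 5 unstimulated domains contained 20 gaps of 10 bp. For the 3 in CIRBP the calcitriol site at the start had no such gap. The other 17 lay a median of 410 bp from the nearest calcitriol gap, 3 of them within 100 bp, 5 over 500 bp away and none at the same place. The closest pair was 40 bp apart, at IRS2, and the farthest 3530 bp, at SKI, beyond the end of the calcitriol string. The single peaks were also cut differently, with a median width of 1100 bp (510 to 2340 bp) over the 39 unstimulated and 1690 bp (580 to 2860 bp) over the 25 calcitriol peaks. In the whole lists the medians were 1340 and 1430 bp. OTX1 was the exception, with a median of 1060 bp before and 800 bp after calcitriol.

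**Figure D4:**
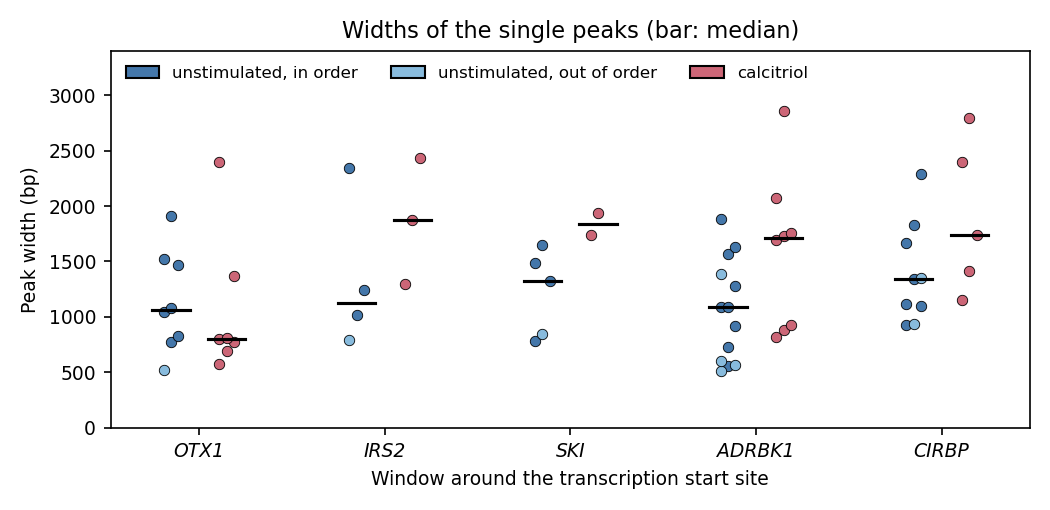
Width in bp of each single peak in the 5 windows, for the unstimulated (dark blue, or light blue for out-of-order rows) and calcitriol (red) list, with a bar at the median. The calcitriol median is the higher one at IRS2, SKI, ADRBK1 and CIRBP, and the lower one at OTX1.

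Some pieces of the unstimulated strings stand in rows that break the position order of the deposited list. Such rows were 9 of the 39 peaks in the windows, where 14.5% of the whole unstimulated list are of this kind (170 of 1169) and none of the calcitriol list. All 9 lay exactly 10 bp from a neighbour on at least 1 side, and 6 of them on both sides. In the whole list 17 out-of-order rows had neighbours at 10 bp on both sides, 48 on 1 side and 105 on neither. The 6 were all inside the start-site domains, 2 at ADRBK1 (510 and 600 bp wide) and 1 each at OTX1 (520 bp), IRS2 (790 bp), SKI (850 bp) and CIRBP (1350 bp). Of the 9, 8 shared bases with a calcitriol peak, where 50 of the 170 in the whole list did.

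The unbroken run of each unstimulated domain rested on these rows. Without them the outer edges stayed the same, but each domain fell into 2 sites (3 at ADRBK1), and the longest site left was 4830 bp at OTX1, 3939 bp at SKI, 3370 bp at IRS2, 2960 bp at CIRBP and 2810 bp at ADRBK1. The site nearest to the start was then 4830 bp at OTX1, 2810 bp at ADRBK1, 1320 bp at SKI, 1240 bp at IRS2 and 930 bp at CIRBP, shorter than the calcitriol site at all 5 genes. By the site nearest to the start, the shorter calcitriol extents at SKI, ADRBK1 and CIRBP thus turn around when out-of-order rows are left out. By the longest site left, ADRBK1 alone of these 3 turns around (2810 bp against 4750 bp after calcitriol). The unstimulated site stayed the longer by that measure at SKI (3939 against 3690 bp) and at CIRBP (2960 against 2790 bp). The covered length did not turn around: 30 unstimulated peaks then covered 39.5 kb, still more than the 36.1 kb of the calcitriol list, and 72.6% of the calcitriol length was in common. Why these rows stand out of order is not given in the sources used here.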

How the data were processed

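VDR ChIP-seq peaks of THP-1 cells were analysed, 1 library per condition. The submitters' processing notes name Bowtie and the hg19 build. For the peak caller, its threshold and any use of the IgG sample, the sources used here give nothing. The authors deposited 1 list of genomic positions per VDR sample (chromosome, start, end), with no score or depth. Coordinates are as deposited, and width is end minus start.

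Start sites (hg19, nearest kb) came with the choice of the 5 genes, which, like the lists, was made with earlier results of these data known. All 5 genes are named. Out-of-order rows are those of a chromosome from the place where its position order first breaks. Sharing needs at least 1 bp, and shares have exact Clopper-Pearson 95% intervals. No test was run. Strings, sharing and order were checked on simulated lists. Promoter entries (250 bases before to 50 after a start) and gene order came from RefSeq (GRCh38.p14), and gene strand from the promoter table, for SKI from general knowledge. Alternatives were other windows, joining distances and definitions of sharing, and removal of out-of-order rows. Software was Python 3.11.15 with pandas 2.3.3, numpy 2.4.6, scipy 1.17.1 and matplotlib 3.10.9.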

Additional observations from a re-analysis of the deposited data

How the results depend on the processing

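Of 102 alternative values, 84 stayed within 1.5 times of the reported value, or inside the exact interval for shares of peaks. This tally is not a measure of robustness. The calcitriol list has no out-of-order rows, so its own counts, lengths and ranks could not change when such rows were removed. The limit of 1.5 times also lets the order of the lists reverse. At OTX1 the unstimulated 8270 bp, with neighbours up to 1000 bp apart joined, passed the 7480 bp after calcitriol and still counted as kept. With windows of 10 kb to each side, 5 unstimulated strings were left in place of 8, and 18 of 18 calcitriol peaks were shared (100%). With reciprocal overlap of at least 50%, 48.7% of unstimulated peaks were shared. The other 15 that moved are extents and ranks of single domains, without out-of-order rows or with neighbours up to 1000 bp apart joined, and follow from the rows removed or joined. Windows moved by 500 bp, an alternative added after seeing the data, held 39 unstimulated and 24 or 25 calcitriol peaks. No replicate could be left out, and no paired analysis was possible because there is 1 library per condition. Depth and peak heights are unknown, so whether a peak missing from a list lay just under its threshold was not tested.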
